A study of Homo sapiens with 12 samples.

Results

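The genes described here are 40 genes of the lysosome: 22 acid hydrolases, 3 cofactors or carriers, 7 membrane proteins, 5 subunits of the proton pump, the transcription factors TFEB and TFE3, and the autophagy receptor SQSTM1. They were chosen by function, as a list of symbols, with earlier results of these data known. All 40 were found by Ensembl identifier in a count table of 17786 genes. Messenger RNA was sequenced from K562, a cell line from chronic myelogenous leukaemia, in 12 libraries of 3 groups of 4. The first group was given 2 mM alpha-ketobutyrate (AKB) for 24 h, the second 2 mM pyruvate for 24 h, and the third was left untreated. All groups grew in the same glutamine-containing RPMI-1640 medium with serum. Both compounds are small keto acids, AKB being the longer by 1 methylene group, and each can take electrons from NADH through lactate dehydrogenase. The design asks how the transcriptome responds to each of these electron acceptors. The labels do not describe the 4 libraries of a group as separate cultures, so every p-value below measures only the spread between these libraries, which may be technical.

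Lysosomes are acidic organelles in which hydrolases break down proteins, glycans and lipids delivered by endocytosis and autophagy. A vacuolar-type ATPase pumps protons into the lumen, and heavily glycosylated proteins such as LAMP1 and LAMP2 line the membrane. TFEB and TFE3 are basic helix-loop-helix factors that enter the nucleus when mTORC1 is inactive and bind E-box sequences in the promoters of many lysosomal genes. Their activity is set largely by phosphorylation and location, which mRNA levels do not report. SQSTM1 (p62) carries ubiquitinated cargo to autophagosomes.

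Total counts ran from 15353200 to 21301073 per library. Of the 40 genes, 39 were among the 13598 genes that passed the filter on low counts. LIPA, the lysosomal acid lipase, did not pass, with 1 to 6 counts per library. Erythroid genes by which K562 cells are known were present in every group. The embryonic globin HBE1 had 2765 to 3021 CPM (counts scaled to a fixed library size) with AKB, 1799 to 2068 CPM with pyruvate and 2072 to 2240 CPM without treatment, and TAL1, a transcription factor of blood cell development, had 215 to 222 CPM with AKB, 191 to 224 CPM with pyruvate and 229 to 239.6 CPM without treatment. The fetal globin HBG2 had 5078 to 5844 CPM with AKB, 3808 to 4345 CPM with pyruvate and 4805 to 5457 CPM without treatment. Levels of HBE1, TAL1 and HBG2 were thus lower in every pyruvate library than in any untreated library. The other erythroid genes examined did not all follow, and some averaged higher with pyruvate than without treatment. Pyruvate replicates 3 and 4 stood apart from the other libraries along the GC content of the transcripts. Relative to the mean of all libraries, the log2 level of a gene rose in them by 0.328 and 0.348 per 10 percentage points of GC, against −0.155 to 0.0179 in the other 10 libraries. Results that moved with these libraries are therefore given with and without them.

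The motif that TFEB and TFE3 are known to bind was searched in the promoters, taken as 250 bases before to 50 bases after the start site in RefSeq (GRCh38.p14). The table of promoters held 27 of the 40 genes. CTSB, PSAP, MANBA and ASAH1, which were called in the comparisons below, were not among the 27, so their promoters were not searched. The core E-box CACGTG, which reads the same on both strands, was in 8 of these 27 promoters (29.6%), against 7.43% of all 27305 promoters and 10.3% of the 9938 promoters of genes tested here. The longer palindrome TCACGTGA, which contains that core, was in 18.5% of the lysosomal promoters, 1.04% of all promoters and 2.0% of those of genes tested. The 8 genes with the core are CTSA, CTSD, GAA, NEU1, LAMP1, CD63, MCOLN1 and ATP6V0D1. LAMP1 had 6 matches, the last of them across the start site. A match is a run of letters in the window and does not show binding in these cells.

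The stretches just upstream of the start site are printed 5′ to 3′ on the strand of the gene for 6 of these 8 genes, to show how the E-boxes lie, with CACGTG in capitals. LAMP1 is shown for 250 bases (chr13:113296989-113297238, plus strand) because it was the only gene of the list called lower with AKB than with pyruvate. The others are shown for 80 bases: CTSA (chr20:45891255-45891334, plus), CTSD (chr11:1763928-1764007, minus), GAA (chr17:80101501-80101580, plus), MCOLN1 (chr19:7522544-7522623, plus) and ATP6V0D1 (chr16:67481158-67481237, minus).
LAMP1: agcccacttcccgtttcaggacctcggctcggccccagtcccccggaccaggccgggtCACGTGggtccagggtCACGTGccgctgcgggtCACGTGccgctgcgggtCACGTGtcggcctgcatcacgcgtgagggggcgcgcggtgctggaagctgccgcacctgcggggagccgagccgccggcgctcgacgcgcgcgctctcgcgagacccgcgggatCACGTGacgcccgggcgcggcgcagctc
CTSA: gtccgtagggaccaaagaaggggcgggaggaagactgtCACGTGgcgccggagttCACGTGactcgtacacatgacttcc
CTSD: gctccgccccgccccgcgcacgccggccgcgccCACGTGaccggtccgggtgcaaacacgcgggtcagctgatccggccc
GAA: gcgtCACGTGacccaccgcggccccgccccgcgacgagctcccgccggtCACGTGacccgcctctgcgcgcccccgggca
MCOLN1: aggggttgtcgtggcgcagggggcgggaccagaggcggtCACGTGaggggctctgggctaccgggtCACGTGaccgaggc
ATP6V0D1: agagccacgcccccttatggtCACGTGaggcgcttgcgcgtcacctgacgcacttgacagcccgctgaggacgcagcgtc

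The levels of the genes spanned a wide range in K562 cells, and their order was set by the gene far more than by the treatment. Per kilobase of transcript, the highest levels in untreated cells were those of PSAP, the precursor of the saposins that help hydrolases act on sphingolipids, of the tetraspanin CD63, and of LAPTM4B, a transmembrane protein of late endosomes. PSAP averaged 261 ± 3.54 CPM per kilobase with AKB, 232 ± 6.19 with pyruvate and 227 ± 6.40 without treatment (SD, n = 4 each). CD63 averaged 139 ± 6.83, 144 ± 27.0 and 118 ± 2.78 CPM per kilobase in the same order of groups, and LAPTM4B averaged 98.9 ± 7.25, 85.0 ± 10.7 and 102 ± 5.60. In untreated cells PSAP lay above CD63 and CD63 above LAPTM4B by more than their spread. The next genes, the carboxypeptidase CTSZ at 49.5 ± 2.68 and the thioesterase PPT1 at 49.5 ± 5.07 CPM per kilobase in untreated cells, were within their spread of each other.

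Among the lowest levels were those of GAA, LIPA and NEU1. GAA, which digests glycogen in the lysosome, averaged 0.360 ± 0.175 CPM per kilobase with AKB, 0.454 ± 0.0917 with pyruvate and 0.349 ± 0.116 without treatment, so that the groups lay within their spread. NEU1, the lysosomal sialidase (chr6:31857659-31862906, minus strand), was listed at 0 in 5 of the 12 libraries. Its counts were 0, 0, 0 and 36 with AKB, 0, 56, 43 and 104 with pyruvate, and 0, 73, 73 and 62 without treatment. Libraries of the same group thus differed widely, from none to many counts. The values are estimated counts, in which a 0 can be a failed estimate, so no fold change is read from NEU1. Over the 39 genes tested, the coefficient of variation among the untreated libraries had a median of 6.78%, and it ran from 2.14% to 67.4%.

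**Figure D1:**
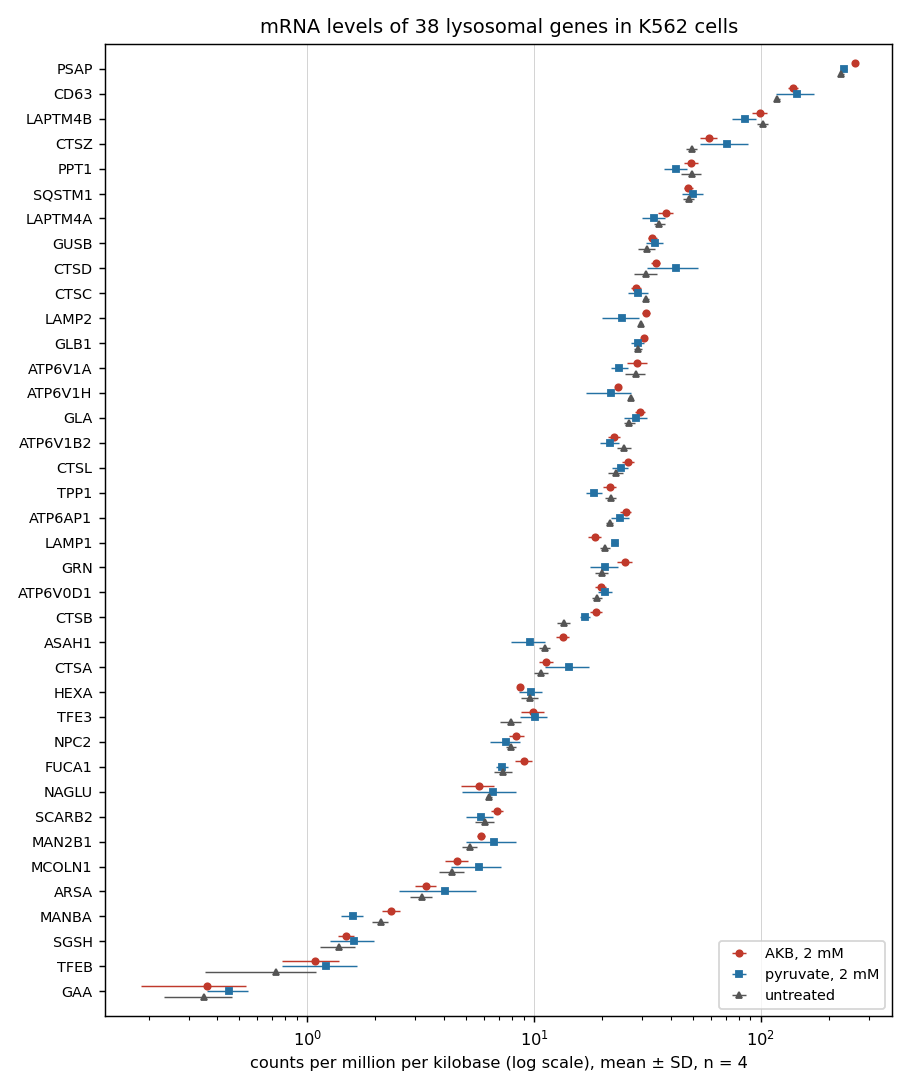
Mean mRNA level of 38 lysosomal genes in CPM per kilobase of transcript (log scale) with SD of 4 libraries, for AKB (circles), pyruvate (squares) and untreated cells (triangles); NEU1 and LIPA, the genes with libraries at or near 0, are not drawn. The levels run from GAA, below 1, to PSAP, above 200, and the groups lie close together for most genes.

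Differences in level between groups were small beside this range. Summed over the 40 genes, the level was 3537 to 3642 CPM with AKB, 3323 to 3466 CPM with pyruvate and 3359 to 3410 CPM in untreated cells. The AKB libraries thus lay above all other libraries. PSAP alone averaged 750 CPM with AKB, 668 CPM with pyruvate and 651 CPM in untreated cells. For the cofactors and carriers PSAP, GRN and NPC2 the sums were 800 to 831 CPM with AKB, 690 to 743 CPM with pyruvate and 679 to 726 CPM without treatment. For the 22 hydrolases they were 1205 to 1252 CPM with AKB, 1151 to 1253 CPM with pyruvate and 1134 to 1198 CPM without treatment.

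With AKB, 2 of the 39 genes tested were higher than in untreated cells and 0 were lower, by edgeR's quasi-likelihood test at an adjusted p below 0.05. The 2 genes were CTSB and PSAP. Over all 13598 genes, 1.97% were called, 1.37% higher and 0.603% lower. At a p below 0.05 before adjustment, 8 genes were above and 1 below. No share over all genes is given for such unadjusted counts, here or below. DESeq2's Wald test and limma-voom each also called 2 higher and 0 lower. Over all 13598 genes DESeq2's test called 343 higher and 196 lower, and limma-voom 181 and 78. The estimates of 28 of the 39 genes were above 0 (71.8%), against 51.4% over all genes, and the median log2 fold change was 0.08 against 0.01 over all genes. With each library's trend on GC content removed, 24 of the 39 were above 0 (61.5%), against 52.4% over all genes. The medians were then again 0.08 and 0.01.

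CTSB, a cysteine cathepsin that cuts proteins in the lysosome (chr8:11842524-11869448, minus strand), had 75.9, 71.6, 67.0 and 77.0 CPM with AKB, 61.1, 67.2, 68.2 and 64.3 CPM with pyruvate, and 53.0, 48.7, 51.6 and 56.8 CPM in untreated cells. Every AKB library and every pyruvate library lay above every untreated one, and the ranges of the 2 treatments met. CTSB rose with AKB by 0.47 on the log2 scale (SE 0.07, adjusted p 0.00519), a fold of 1.39. It was called under each of 23 alternative settings, at a log2 fold change of 0.44 to 0.51 and an adjusted p of at most 0.0278. No other gene of the list was called in every setting.

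PSAP (chr10:71816298-71851375, minus strand) had 735, 755, 752 and 756 CPM with AKB, 677, 641, 679 and 672 CPM with pyruvate, and 625, 667, 654 and 659 CPM in untreated cells. The AKB libraries lay above all others, while pyruvate and untreated libraries overlapped. PSAP rose with AKB by 0.20 (SE 0.04, adjusted p 0.0305), a fold of 1.15. The call was kept in 12 of 23 settings and was lost when any 1 AKB or untreated library was left out (adjusted p up to 0.12).

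**Figure D2:**
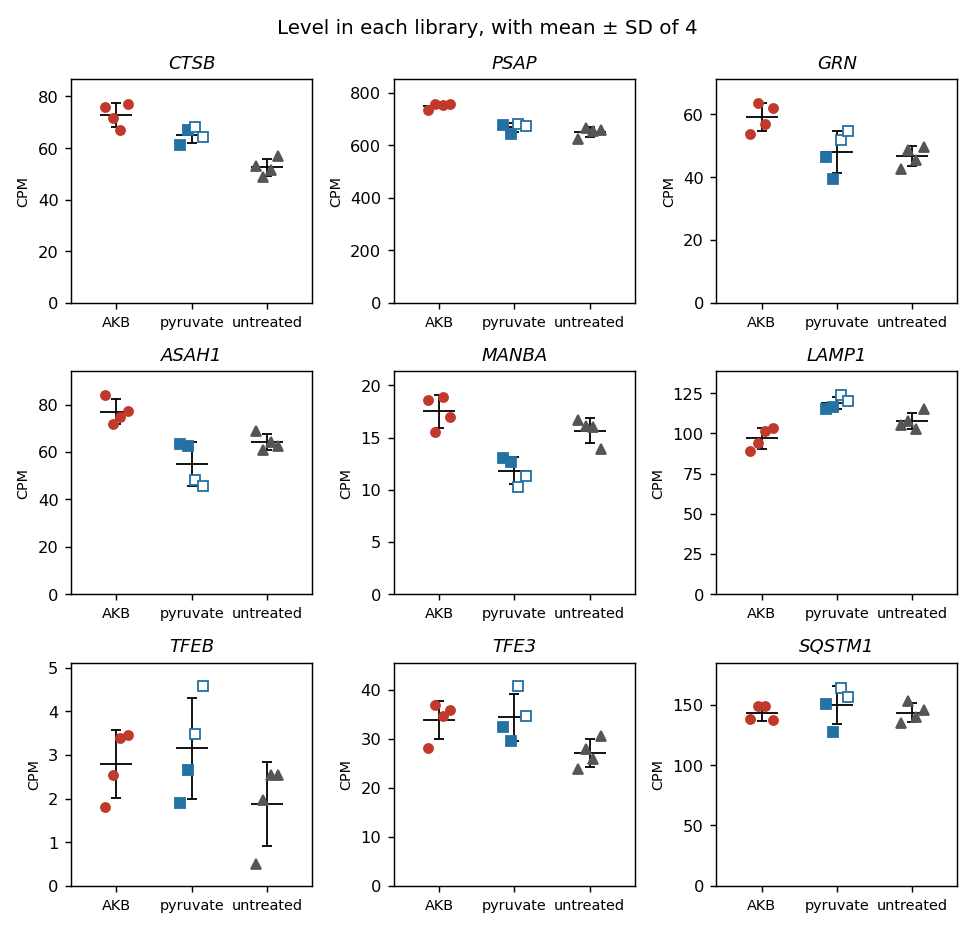
Level in each library in CPM for 9 lysosomal genes, with the mean (long line) and SD of 4 libraries; within each panel the groups run AKB, pyruvate, untreated, and the open squares are pyruvate replicates 3 and 4. For CTSB all AKB and pyruvate libraries lie above the untreated ones, for PSAP the AKB libraries lie above all others, and for TFEB the groups overlap.

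The groups of 4 libraries did not overlap for 9 genes that were higher with AKB (CTSB, GLA, MAN2B1, FUCA1, ASAH1, PSAP, GRN, CD63 and ATP6AP1) and for 1 that was lower (ATP6V1H). Over all genes tested, 8.74% were separated in this way above and 8.41% below. Of these 10 genes, 8 missed the threshold. GRN encodes progranulin, which is cut into granulins in the lysosome, and its values are given because it moved most among them. GRN had 53.8, 63.6, 57.0 and 61.9 CPM with AKB, 46.4, 39.3, 51.7 and 54.6 CPM with pyruvate, and 42.7, 48.8, 45.5 and 49.6 CPM in untreated cells. Its AKB libraries lay above all untreated ones but overlapped with pyruvate. The log2 fold change against untreated was 0.34 (SE 0.10, adjusted p 0.13).

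The number of genes called with AKB depended on pyruvate replicates 3 and 4, which enter the shared estimate of the spread. Without these libraries, 7 genes were higher (GRN, ATP6AP1, CTSZ, ASAH1, CD63, CTSB and PSAP) and ATP6V1H was lower with AKB than in untreated cells, against 9.17% called over all genes (4.86% higher and 4.31% lower). The estimates themselves hardly moved. GRN had a log2 fold change of 0.34 (adjusted p 0.0172), ASAH1, the acid ceramidase, 0.26 (adjusted p 0.016), and ATP6AP1, an accessory subunit of the proton pump, 0.24 (adjusted p 0.011). ATP6V1H, a regulatory subunit of the same pump, had −0.19 (adjusted p 0.0185). With each library's trend on GC content removed, 7 genes were higher (LAMP2, GRN, ATP6AP1, ASAH1, CTSB, FUCA1 and PSAP) and 0 lower, against 9% called over all genes (5.17% higher and 3.82% lower). Both CTSB and PSAP were among the genes called in either setting.

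By role, single genes rather than whole groups were called with AKB. Among the 7 peptidases, CTSB was called, and the other estimates ran down to −0.14 for CTSC, the dipeptidyl peptidase that activates granzymes. Among the 10 glycosidases the calls were 0 by edgeR, with 1 at an unadjusted p below 0.05 (FUCA1, the alpha-fucosidase, at 0.29 with an adjusted p of 0.171). The 5 pump subunits ran from −0.19 for ATP6V1H to 0.24 for ATP6AP1, with ATP6V1A, the catalytic subunit, at 0.02. The 7 membrane proteins ran from −0.15 for LAMP1 to 0.23 for CD63.

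With pyruvate, CTSB was the 1 gene of 39 called higher and 0 were lower than in untreated cells (1.95% called over all genes, 1.02% higher and 0.927% lower). At a p below 0.05 before adjustment, 10 genes were above and 8 below. DESeq2's Wald test called 5 higher (CTSA, TFE3, CTSZ, CTSD and CTSB) and 3 lower (LAPTM4B, MANBA and TPP1). Over all 13598 genes it called 1096 higher and 725 lower. By limma-voom 1 gene of the list was called higher and 0 lower, against 90 and 130 over all genes. CTSB rose by 0.31 (SE 0.07, adjusted p 0.0448), a fold of 1.24, and was called in 11 of 23 alternative settings. Without pyruvate replicates 3 and 4 its log2 fold change was 0.29 (adjusted p 0.113), and no gene of the list was then called by edgeR in either direction. Before adjustment 2 were higher and 2 lower at p below 0.05, and 0.71% were called over all genes (0.151% higher and 0.56% lower). With the trend on GC removed, CTSZ and CTSB were higher and LAPTM4B and TPP1 lower, against 10.6% called over all genes (6.26% higher and 4.29% lower).

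The groups did not overlap for CTSB, CTSZ and LAMP1, which were higher with pyruvate (4.89% over all genes), and for TPP1 and MANBA, which were lower (6% over all genes). CTSZ had 80.9, 87.1, 128 and 126 CPM with pyruvate against 70.2, 73.4, 73.0 and 79.7 CPM in untreated cells. Pyruvate replicates 3 and 4 were far above replicates 1 and 2, and replicates 1 and 2 lay just above the untreated libraries. The log2 fold change was 0.51 (SE 0.14, adjusted p 0.0686), and 0.18 without those libraries (adjusted p 0.328). TPP1, a serine peptidase lost in a neuronal ceroid lipofuscinosis, had 95.5, 84.5, 78.2 and 84.6 CPM with pyruvate against 95.8, 101, 99.6 and 108 CPM in untreated cells, a log2 fold change of −0.24 (SE 0.07, adjusted p 0.087).

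The change of a gene with pyruvate followed its GC content. Across the 39 genes, Spearman's correlation between the log2 fold change and transcript GC was 0.81, against 0.63 across all genes, where genes share the same 8 libraries and are not independent. Without pyruvate replicates 3 and 4 it was 0.33 in the list and −0.02 over all genes, and with the GC trend removed it was 0.14 in the list. Of the 24 genes with a GC content above 50%, 19 were higher in both pyruvate replicates 3 and 4 than in both replicates 1 and 2, and 0 were lower in both. Of the 15 at or below 50%, 1 was higher and 11 were lower. CTSD, the aspartic cathepsin (64.0% GC), had 73.3, 66.6, 109 and 110 CPM with pyruvate against 56.7, 64.9, 67.9 and 75.6 CPM in untreated cells. LAMP2 (37.7% GC) had 118, 111, 83.8 and 81.9 CPM with pyruvate against 117, 123, 119 and 117 CPM in untreated cells. For both genes replicates 1 and 2 lay near the untreated range, and replicates 3 and 4 moved away from it in opposite directions.

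**Figure D3:**
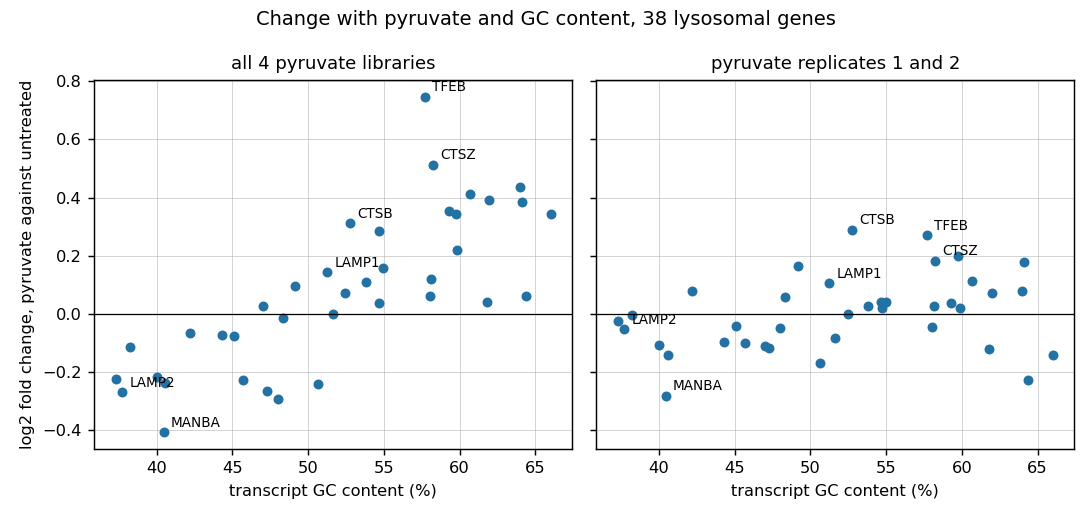
Log2 fold change of 38 lysosomal genes with pyruvate against untreated cells, plotted against transcript GC content in percent, from all 4 pyruvate libraries (left) and from pyruvate replicates 1 and 2 alone (right); NEU1 and LIPA are not drawn. On the left the change increases with GC content, from MANBA and LAMP2 below 0 to CTSZ and TFEB above it, and on the right the slope is shallower.

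Set against pyruvate at the same dose and time, AKB gave 2 genes higher (ASAH1 and MANBA) and 1 lower (LAMP1) of 39, with 3.13% called over all genes, 1.94% higher and 1.19% lower. The 2 comparisons above share the same 4 untreated libraries, which serve here only in the estimate of the spread. Groups did not overlap for 6 genes that were higher with AKB (MANBA, FUCA1, ASAH1, PSAP, LAMP2 and ATP6V1A; 7.08% over all genes) and for 1 that was lower (LAMP1; 4.54% over all genes).

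MANBA, the beta-mannosidase (chr4:102630770-102760994, minus strand), had 18.6, 15.5, 18.9 and 17.0 CPM with AKB, 13.1, 12.7, 10.3 and 11.3 CPM with pyruvate, and 16.6, 16.1, 16.1 and 13.9 CPM in untreated cells. The pyruvate libraries lay below all others, and AKB and untreated libraries overlapped. Between AKB and pyruvate the log2 difference was 0.57 (SE 0.11, adjusted p 0.0194). Without pyruvate replicates 3 and 4 it was 0.44 (adjusted p 0.0487), and with the GC trend removed 0.41 (adjusted p 0.00761). The call held in 17 of 23 alternative settings. MANBA shares 9.69% of its exon bases with a pseudogene on the same strand.

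ASAH1 (chr8:18055992-18084998, minus strand) had 84.1, 71.8, 74.8 and 77.1 CPM with AKB, 63.2, 62.7, 48.0 and 45.6 CPM with pyruvate, and 68.7, 60.8, 64.3 and 62.4 CPM in untreated cells. The AKB libraries lay above all others, and pyruvate replicates 3 and 4 below all others. The log2 difference between AKB and pyruvate was 0.49 (SE 0.11, adjusted p 0.0369), and 0.29 both without pyruvate replicates 3 and 4 (adjusted p 0.0443) and with the GC trend removed (adjusted p 0.00287). The log2 difference with all libraries was over 1.5 times that without these 2, and the call was kept without both. Leaving out any 1 AKB or untreated library, or pyruvate replicate 3 or 4, ended it (adjusted p up to 0.114).

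LAMP1 (chr13:113297241-113323672, plus strand) had 88.7, 94.2, 101 and 103 CPM with AKB, 115, 116, 124 and 120 CPM with pyruvate, and 105, 108, 103 and 115 CPM in untreated cells. The AKB libraries lay below the pyruvate libraries, and the untreated libraries overlapped with AKB and lay below pyruvate. The log2 difference was −0.29 (SE 0.06, adjusted p 0.0368). Without pyruvate replicates 3 and 4 it was −0.26 with an adjusted p of 0.0501, and with the GC trend removed −0.27 (adjusted p 0.00608). The call held in 12 of 23 alternative settings. Of the 6 genes with printed E-boxes, LAMP1 was the only one called in any of the 3 comparisons, and the promoters of the other 4 called genes were not searched. Against untreated cells LAMP1 was at −0.15 with AKB (adjusted p 0.328) and at 0.14 with pyruvate (adjusted p 0.167).

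Several genes missed the threshold between the 2 acids, which does not show that their levels were alike. For CTSB the difference between AKB and pyruvate was 0.16, with a 95% interval of 0.01 to 0.31 (adjusted p 0.18). It was 0.18 without pyruvate replicates 3 and 4 (adjusted p 0.194), and 0.21 and called with the GC trend removed (adjusted p 0.0233). For PSAP it was 0.17, with an interval of 0.08 to 0.26 and an adjusted p of 0.0538, which was 0.0322 without pyruvate replicates 3 and 4 and 0.0069 with the GC trend removed. LAMP2 had 133, 127, 123 and 121 CPM with AKB against the pyruvate values given above, a difference of 0.35 (adjusted p 0.0847) that was 0.13 without pyruvate replicates 3 and 4 (adjusted p 0.165). With the GC trend removed the difference for LAMP2 was 0.17 and was called (adjusted p 0.0188). For GRN the difference was 0.30 (adjusted p 0.105), and 0.45 with the GC trend removed (adjusted p 0.00119). Without pyruvate replicates 3 and 4 it was 0.46 (adjusted p 0.0214). In all, 4 genes were then higher (GRN, ASAH1, MANBA and PSAP) and 0 lower, against 4.36% called over all genes (2.52% higher and 1.84% lower). With the GC trend removed 10 were higher and 2 lower, against 15.8% over all genes (7.64% higher and 8.12% lower).

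**Figure D4:**
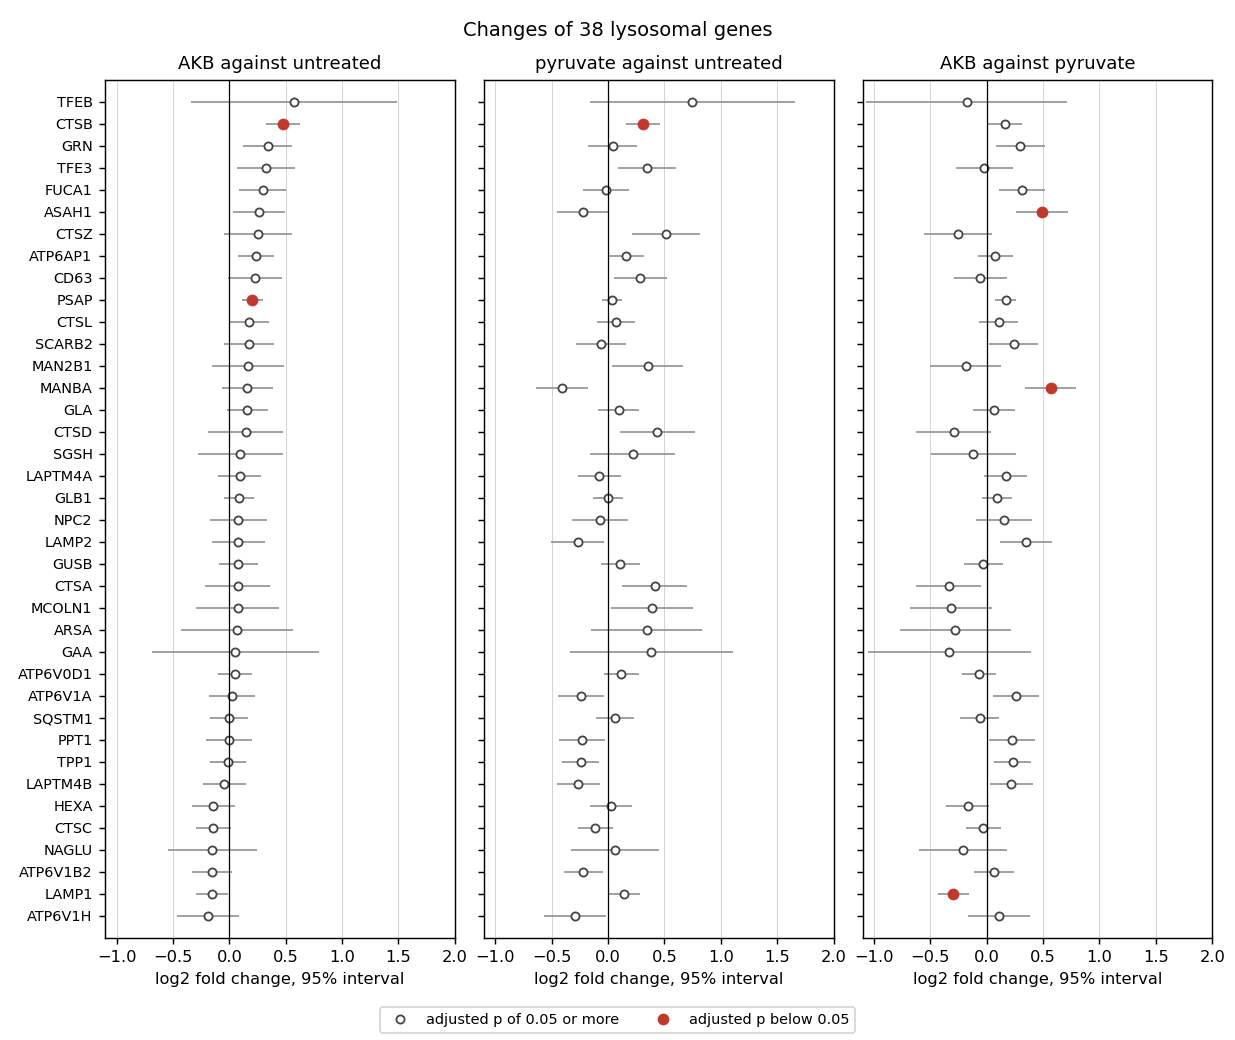
Log2 fold change and 95% interval of 38 lysosomal genes in each of the 3 comparisons, ordered by the change with AKB; filled circles mark an adjusted p below 0.05 (edgeR), and NEU1 and LIPA are not drawn. CTSB and PSAP are filled for AKB against untreated, CTSB for pyruvate against untreated, and ASAH1, MANBA and LAMP1 for AKB against pyruvate.

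The factors that drive lysosomal genes were not called themselves by edgeR with all 12 libraries. TFEB had 1.80, 2.53, 3.40 and 3.46 CPM with AKB, 1.89, 2.65, 3.49 and 4.57 CPM with pyruvate, and 0.496, 1.96, 2.55 and 2.53 CPM in untreated cells. The groups overlapped, and the untreated group held 1 library far below the others. The log2 fold change was 0.57 with AKB (95% interval −0.34 to 1.49, adjusted p 0.634) and 0.75 with pyruvate (−0.16 to 1.66, adjusted p 0.241), and both intervals reached from below 0 to above 1. Without untreated replicate 1, the low library, these were 0.25 with AKB (adjusted p 0.884) and 0.44 with pyruvate (adjusted p 0.409). The change with pyruvate was 0.27 without pyruvate replicates 3 and 4 (adjusted p 0.866). TFE3 was the more abundant factor, at 7.94 CPM per kilobase in untreated cells against 0.726 for TFEB. It had 28.1, 36.9, 34.7 and 35.8 CPM with AKB, 32.5, 29.6, 40.7 and 34.7 CPM with pyruvate, and 23.9, 28.0, 26.0 and 30.5 CPM in untreated cells. Its groups also overlapped, with log2 fold changes of 0.32 with AKB (adjusted p 0.242) and 0.34 with pyruvate (adjusted p 0.101). The change of TFE3 with pyruvate was 0.20 without pyruvate replicates 3 and 4 (adjusted p 0.496) and 0.14 with the GC trend removed (adjusted p 0.262). TFE3 was called with pyruvate in 2 of 23 alternative settings, DESeq2's Wald test and edgeR without pyruvate replicate 2.

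SQSTM1 had 138, 149, 149 and 137 CPM with AKB, 151, 128, 164 and 156 CPM with pyruvate, and 135, 153, 140 and 146 CPM in untreated cells. The groups overlapped throughout. The log2 fold change was −0.003 with AKB (95% interval −0.17 to 0.17, adjusted p 0.994) and 0.06 with pyruvate (−0.11 to 0.23, adjusted p 0.603). In the annotation used here, 20.7% of the exon bases of SQSTM1 are shared with MRNIP on the opposite strand, and no source states that the counting used strand. The same holds for PPT1 with CAP1 (23.4%) and CTSA with NEURL2 (17.7%), and CTSD shares 41.7% with a gene model on its own strand, so their counts are uncertain to that extent. CTSB, PSAP and LAMP1 have no such overlap.

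Other lysosomal genes were examined in lists made by function, also with earlier results of these data known. Of 38 further hydrolases and cofactors tested, 1 was higher with AKB than in untreated cells by edgeR (1.37% over all genes). In that comparison 0 were lower (0.603% over all genes). Before adjustment 6 were higher and 1 lower at p below 0.05. DESeq2 called 4 higher and 0 lower (343 and 196 of all 13598 genes), and limma-voom 1 and 0 (181 and 78 of all genes). The gene called by edgeR was CTSS, a cathepsin of antigen-presenting cells. CTSS had 10.2, 9.14, 7.79 and 9.14 CPM with AKB and 5.33, 6.85, 4.95 and 4.15 CPM with pyruvate. In untreated cells it had 4.63, 3.86, 4.07 and 5.61 CPM. Its AKB libraries lay above all others, and it rose by 1.00 against untreated (SE 0.17, adjusted p 0.0133) and by 0.77 against pyruvate (SE 0.17, adjusted p 0.0388). The difference of CTSS from pyruvate was 0.57 and no longer called without pyruvate replicates 3 and 4 (adjusted p 0.109), and with the GC trend removed it was 0.61 (adjusted p 0.0135). Also higher with AKB than with pyruvate were GM2A, the activator of ganglioside breakdown (0.52, adjusted p 0.0187), and SCPEP1, a serine carboxypeptidase (0.39, adjusted p 0.0353). Between AKB and pyruvate 1.94% of all genes were called higher and 1.19% lower. When pyruvate replicates 3 and 4 were left out, edgeR called 5 of these 38 genes higher and 0 lower with AKB, against untreated cells, in a setting where 4.86% of all genes were called higher and 4.31% lower.

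Of 37 further membrane proteins and transporters, CD68 and LAPTM5 were higher with AKB than in untreated cells by edgeR (1.37% over all genes). In the same test 0 were lower (0.603% over all genes). Before adjustment 7 were higher and 2 lower at p below 0.05. DESeq2 called 1 lower (196 of all 13598 genes) and limma-voom 0 (78 of all genes). By edgeR 2 were higher and 2 lower without pyruvate replicates 3 and 4, where 4.86% and 4.31% of all genes were called. With the GC trend removed 5 were higher and 3 lower, where 5.17% and 3.82% of all genes were called. LAPTM5, expressed in blood cells and of the same family as LAPTM4A and LAPTM4B, had 36.1, 35.5, 32.3 and 32.7 CPM with AKB, 17.1, 17.7, 13.5 and 12.04 CPM with pyruvate, and 16.8, 17.6, 15.7 and 15.2 CPM in untreated cells. Its AKB values stood well clear of both other groups, with a log2 fold change of 1.06 against untreated (SE 0.12, adjusted p 0.000923) and 1.18 against pyruvate (SE 0.12, adjusted p 0.00123). Its relatives were not called: LAPTM4A was at 0.09 and LAPTM4B at −0.04 with AKB against untreated. CD68, a glycoprotein abundant in macrophage lysosomes, rose by 0.61 (SE 0.14, adjusted p 0.0441). Of its exon bases, 81.7% are shared with a transcript model on the same strand that is not in the count table.

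LYZ, CTSS and CD68 are also known from monocytes and macrophages. By edgeR LYZ was higher with AKB than in untreated cells by 0.50 (adjusted p 0.0308; 1.37% higher over all genes). Against pyruvate it was higher with AKB by 0.61 (adjusted p 0.0125, where 1.94% of all genes were called higher). Of 7 monocyte markers 4 were in the table, with a summed level of 42.5 to 52.8 CPM with AKB, 28.7 to 36.4 CPM with pyruvate and 30.4 to 37.7 CPM in untreated cells. Nearly all of this was LYZ, lysozyme, at a mean of 47.2 CPM with AKB, 30.9 CPM with pyruvate and 33.5 CPM in untreated cells. The defining marker CD14 averaged 0.438, 0.303 and 0.143 CPM in the same order of groups, CSF1R had at most 3 counts in any library and ITGAM at most 13. MRC1, MARCO and CD163 were not found by symbol in the count table. Of 5 lymphocyte markers 4 were in the table, summing to 4.24 to 4.92 CPM with AKB, 3.91 to 4.70 CPM with pyruvate and 2.70 to 3.68 CPM without treatment. The 6 epithelial and fibroblast markers summed to 444 to 516, 495 to 658 and 430 to 472 CPM, almost all of it EPCAM, KRT8 and KRT18. The part of these markers in the results was not tested.

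The remaining lists held few calls. Among 18 further subunits and assembly factors of the proton pump, edgeR called 0 in all 3 comparisons. Before adjustment, at p below 0.05, AKB had 1 above and 1 below untreated cells. DESeq2 called 0 there (343 higher and 196 lower of all 13598 genes) and limma-voom 0 (181 and 78). With pyruvate 1 was higher and 4 were lower before adjustment. DESeq2 called 1 higher and 2 lower (1096 and 725 of all genes) and limma-voom 0 (90 and 130). Between AKB and pyruvate 3 were higher and 3 lower before adjustment. DESeq2 called 0 higher and 3 lower (637 and 882 of all genes) and limma-voom 0 (295 and 127). A further list held 28 genes for mannose 6-phosphate tagging and for sorting to lysosomes. AP1S1, a subunit of the clathrin adaptor AP-1, was the 1 of them called higher with pyruvate than in untreated cells (1.02% over all genes). It had 39.3, 41.7, 38.7 and 40.1 CPM with AKB, 37.4, 42.6, 61.8 and 56.8 CPM with pyruvate, and 30.2, 31.0, 32.2 and 35.0 CPM in untreated cells. Every treated library lay above every untreated one. The log2 fold change of AP1S1 was 0.63 with pyruvate (adjusted p 0.0404) and 0.32 with AKB (adjusted p 0.332). Without pyruvate replicates 3 and 4 it was 0.32 in each of them, with an adjusted p of 0.0856 with pyruvate and 0.0113 with AKB.

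Among 36 regulators of TFEB and TFE3 and autophagy genes, AKB had 1 above and 1 below the untreated cells by edgeR, where 1.37% of all genes were called higher and 0.603% lower. With pyruvate 0 were higher by edgeR and 2 lower, where 1.02% and 0.927% of all genes were called. Before adjustment 3 were higher and 3 lower with AKB, and 1 higher and 7 lower with pyruvate, at p below 0.05. DESeq2 and limma-voom also called 0 higher with pyruvate, against 1096 and 90 of all 13598 genes. Between AKB and pyruvate OPTN and CALCOCO2 were called higher and 0 lower by edgeR, where 1.94% and 1.19% of all genes were called. At p below 0.05 before adjustment 6 of the list were higher and 1 lower. DESeq2 and limma-voom called 0 of the list lower, against 882 and 127 of all genes. OPTN, an autophagy receptor for ubiquitinated cargo, had 14.1, 13.6, 15.9 and 15.4 CPM with AKB, 10.8, 10.4, 12.2 and 11.7 CPM with pyruvate, and 10.3, 11.8, 10.7 and 11.7 CPM in untreated cells. It rose by 0.41 against untreated (adjusted p 0.0462). The difference of OPTN between AKB and pyruvate was 0.39 (adjusted p 0.0471), and 0.48 without pyruvate replicates 3 and 4 (adjusted p 0.0317). With the GC trend removed that difference was 0.30 and no longer called (adjusted p 0.108). NBR1, a receptor related to SQSTM1, fell by 0.27 with AKB (adjusted p 0.0464). In that comparison limma-voom called 0 of the list lower, against 78 of all genes. By edgeR the call of NBR1 was kept without pyruvate replicates 3 and 4 (adjusted p 0.00616) and with the GC trend removed (adjusted p 0.00894). MAP1LC3B, the LC3 protein that is coupled to autophagosome membranes, had 180, 164, 164 and 168 CPM with AKB, 168, 164, 139 and 120 CPM with pyruvate, and 216, 204, 206 and 194 CPM in untreated cells. Both treated groups lay below all untreated libraries. MAP1LC3B fell by 0.47 with pyruvate (adjusted p 0.0351), which was −0.30 without replicates 3 and 4 (adjusted p 0.0344), and was at −0.28 with AKB (adjusted p 0.212). With AKB it was again −0.28 without those libraries, and then passed the threshold (adjusted p 0.004). CALCOCO2, the receptor NDP52, fell by 0.29 with pyruvate (adjusted p 0.0466), a call that was lost without pyruvate replicates 3 and 4 (−0.21, adjusted p 0.113) and with the GC trend removed (−0.16, adjusted p 0.0718). Its difference between AKB and pyruvate was 0.26 (adjusted p 0.049), and 0.18 without those libraries (adjusted p 0.0821).

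**Figure D5:**
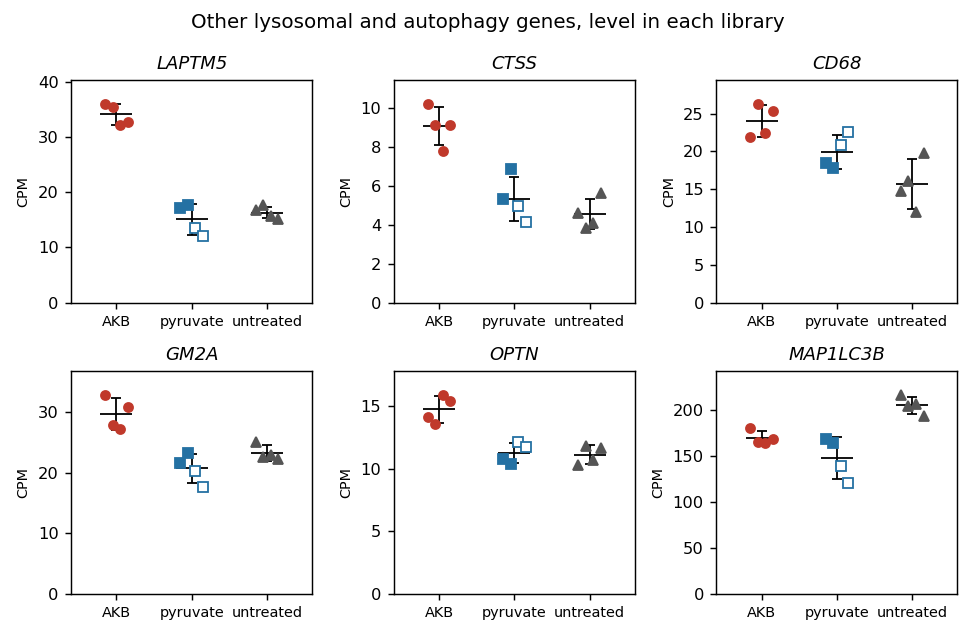
Level in each library in CPM for 6 other lysosomal and autophagy genes, with the mean (long line) and SD of 4 libraries; groups run AKB, pyruvate, untreated, and open squares are pyruvate replicates 3 and 4. LAPTM5, CTSS, GM2A and OPTN are highest in the AKB libraries, and MAP1LC3B is highest in the untreated libraries.

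The authors' deposited tables give their own adjusted p for 39 of the 40 genes in each comparison. In the authors' deposited table of untreated over AKB, 4 genes passed 0.05, all lower in untreated cells, among 4.9% of all genes: CTSB with a log2 fold change of −0.44, PSAP with −0.29, ASAH1 with −0.23 and TFE3 with −0.35. In the authors' deposited table of untreated over pyruvate, CTSB was lower in untreated cells, and CTSC, TPP1 and ATP6V1B2 were higher, among 12% of all genes. In the authors' deposited table of AKB over pyruvate, MANBA, FUCA1, ASAH1, PSAP and LAMP2 were higher and LAMP1 was lower, among 10% of all genes. The sign of these folds was read from the table headers and from their agreement with the counts.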

How the data were processed

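Messenger RNA of K562 cells was measured in 12 libraries, 4 per group, grouped by the labels. Per the labels' protocols, poly(A) RNA was fragmented and primed at random. Salmon 1.2.1, DESeq2 1.26.0 and R 3.6.3 were used, per the submitters' processing notes. For the build and settings, the sources used here give nothing. The deposited values are estimated counts per gene; they were whole numbers, so rounding changed none. The authors also deposited comparison tables with a mean normalised signal, a log2 fold change, its error and raw and adjusted p-values, per the file headers.

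Symbols were matched for 95.2% of identifiers. Transcript length and GC content came from GENCODE 29 on GRCh38, using the longest transcript. The test was edgeR 4.0.16 (R 4.3.3, limma 3.58.1): filterByExpr by group with a minimum count of 10, TMM scaling, and a quasi-likelihood fit of all 12 libraries with 1 term per group. Calls needed a Benjamini-Hochberg adjusted p below 0.05 over all 13598 genes. For counts at a p below 0.05 before adjustment, the share over all genes is not given, so they show neither an excess nor its absence. CPM uses TMM-scaled library sizes. The alternatives were DESeq2 1.42.0 size factors, library size alone, other filters, DESeq2's Wald test, limma-voom, a replicate block, a GC-content offset (a spline with 5 degrees of freedom per library), and libraries left out. The script was tested on simulated counts.

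The genes and further lists were chosen with earlier results of these data known. All 40 genes could be named. Values per library are given for genes called in any comparison and for TFEB, TFE3 and SQSTM1. Up to 4 called genes of each further list are named, and LAPTM5 was set beforehand to be named. The values per library of GRN, NEU1, CTSZ, TPP1, CTSD and LAMP2 were picked after they were seen. Pairing of the libraries by replicate number was not shown: correlations of same-numbered deviations ran from −0.0996 to 0.202. Precision is limited by counting in low genes such as TFEB and GAA. A summed level of the K562 markers is not reported here.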

Additional observations from a re-analysis of the deposited data

Results flagged for a closer look

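In 7 of 120 groups of 4 libraries, 1 library lay far from the other 3 relative to the range of the group; chance alone gives about 1 in 20 groups. GLA had 45.2 CPM in AKB replicate 1, above the rest of its group. SGSH had 7.29 CPM in AKB replicate 4 and 5.69 CPM in untreated replicate 3, each below its group. NEU1 had 2.22 CPM in AKB replicate 4, where the other AKB libraries were listed at 0, and 0 CPM in untreated replicate 1, where the others had counts. LIPA, which rests on 1 to 6 counts per library, had 0.140 CPM in pyruvate replicate 4 and 0.325 CPM in untreated replicate 3, above their groups.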

How the results depend on the processing

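CTSB kept its rise with AKB under all 23 alternatives. The other calls lost their adjusted p under some of them, the signs of the called genes did not turn, and the cause was not tested unless named. For AKB against untreated, 1 gene of the list was higher with no filter on low counts and 7 were with the 8 libraries of the contrast alone, where 1 was lower, as without pyruvate replicates 3 and 4. Leaving out single libraries gave 1 to 3 higher and 0 lower, a median of 0.073 to 0.12, and 92 to 357 calls over all genes. All-gene calls were 539 with DESeq2's Wald test, 1174 with the GC-content offset, 1278 without pyruvate replicates 3 and 4 and 1339 with the 8 libraries alone.

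For pyruvate against untreated, 0 genes were higher by edgeR with no filter, without pyruvate replicates 3 and 4 and with the 8 libraries alone, 5 were with DESeq2's Wald test and 2 with the GC-content offset. Lower were 3 with DESeq2's Wald test and 2 with the offset. Leaving out single libraries gave 0 to 9 higher, 0 to 5 lower, a median of 0.04 to 0.11, and 32 to 3611 calls over all genes. All-gene calls were 152 with no filter, 1821 with DESeq2's Wald test, 1377 with the offset, 99 without pyruvate replicates 3 and 4 and 16 with the 8 libraries alone.

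For AKB against pyruvate, 1 gene was higher with no filter, 5 with DESeq2's Wald test, 10 with the offset, 4 without pyruvate replicates 3 and 4 and 0 with the 8 libraries alone. Lower were 2 with the offset and 0 in each of the last 2 settings. Leaving out single libraries gave 0 to 6 higher, 0 to 2 lower, a median of −0.0034 to 0.069, and 68 to 2111 calls over all genes. The median of the list was 0.085 with library size alone, 0.10 without pyruvate replicates 3 and 4 and 0.043 with the 8 libraries alone. All-gene calls were 214 with no filter, 1519 with DESeq2's Wald test, 2056 with the offset and 6 with the 8 libraries alone. Of these all-gene calls 264 were higher and 162 lower with TMM, against 311 and 93 with library size alone and 997 and 1059 with the offset. For AKB against untreated they were 186 and 82 with TMM, and 675 and 499 with the offset.

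With the replicate number as a block, although pairing by number was not shown, 1 gene was higher with AKB than in untreated cells (158 calls over all genes) and 2 with pyruvate (565 calls). The block with the GC-content offset gave 5 higher with AKB (1043 calls over all genes), 2 higher and 2 lower with pyruvate (1575 calls), and 9 higher and 2 lower between AKB and pyruvate (2071 calls). TFE3 passed the threshold with pyruvate under DESeq2's Wald test and without pyruvate replicate 2 (adjusted p 0.0316), and SQSTM1 under none.

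Low counts limit TFEB, GAA and LIPA, values of 0 limit NEU1, and poly(A) mRNA says nothing of enzyme activity or protein. Intervals cover the spread between these libraries only.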
